A study of Mus musculus with 16 samples.

Results

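The cell proliferation and cell cycle genes described here are 39 genes chosen by name and not by any measured value: genes of the G1 phase, in which a cell commits to divide, of the S phase, in which DNA is copied, and of mitosis. They were compared between FoxO deletion and control gastrocnemius muscle, the large muscle of the calf, of 16 mice measured on 1 Affymetrix array each. Of the 39, 37 had a probe set that the platform annotation pairs with 1 gene symbol; Ccnb1 had none, and the probe set of Ccne2 also names Ints8. A gene was tested if its brightest such probe set lay above the array's median in at least 8 of the 16 arrays, which 24 of the 37 did, among 13601 genes tested in all. Those 24 were 8 of 10 G1 genes, 11 of 11 S phase genes and 5 of 18 mitosis genes.

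All mice were male FVB/n mice, 16 weeks old, that carried loxP-flanked Foxo1, Foxo3 and Foxo4 alleles, received 3 injections of polyinosine:cytidine at 4 to 5 weeks of age and ate a diet of 58% fat for 8 weeks. The deletion group (n = 8), whose genotype the labels also call a knockdown of FoxO1,3,4, carried Mx1-Cre in addition. The control group (n = 8), called wild type in the labels, was made up of littermates that carried the floxed alleles without Cre. The labels describe the deletion as directed at endothelial cells; Mx1-Cre is driven by an interferon-responsive promoter, which is known to be active in other cells too, blood-forming and liver cells among them. Every deletion mouse and no control carried Cre, so effects of Cre and of the deletion cannot be told apart.

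Cyclins bound to cyclin-dependent kinases drive a cell from one phase to the next: D cyclins with Cdk4 and Cdk6 start the release of E2F transcription factors from the retinoblastoma proteins in G1, E2F then switches on the genes of DNA copying, and cyclin B with Cdk1 starts mitosis. FoxO factors are known to hold cells in G1, in part by raising inhibitors of these kinases and lowering D cyclins. Adult muscle fibres are long-lived and do not divide, so transcripts of dividing cells in muscle are expected from other cells of the tissue, such as endothelial, blood, stromal and satellite cells. In a whole muscle sample, fewer cells of a type and less RNA per cell cannot be told apart.

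The values are log2 expression after RMA, a method that background-corrects, normalizes and summarises the probes of an array. Array medians lay between 4.43 and 4.61 log2 units. All 14 muscle fibre markers examined passed the filter, as the labelled tissue has it. The targeted transcripts did not separate the groups: Foxo1 read 7.05 to 8.23 in deletion and 7.22 to 7.38 in control mice, Foxo3 read 5.42 to 6.66 in deletion and 5.19 to 5.66 in control mice, and Foxo4 read 6.77 to 7.48 in deletion and 7.26 to 7.73 in control mice. None of the 3 passed the threshold (limma adjusted p of 0.804, 0.0762 and 0.236), and no source says if their probes fall within the exons removed by Cre, so the groups rest on the labels. Over all genes, 208 were higher and 41 lower with deletion at a limma adjusted p under 0.05 (1.83% of genes), and 126 and 67 when arrays were centred on their medians. Endothelial marker genes were among the higher ones, and liver and red cell transcripts varied between mice; their values are given beside the results they accompany.

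One of the 24 tested cell cycle genes passed the threshold, Plk2, which was higher with deletion; no S phase gene and no mitosis gene passed it. The background is 1.83% of all genes in either direction, 1.53% higher and 0.301% lower, and 1 call among 24 genes is too few to set against it. Without the filter it was again 1 of 37, Plk2, against 0.618% of 22180 genes. Plk2 was also the only member whose groups did not overlap, which 0.353% of all genes tested share (0.243% higher and 0.11% lower). At an unadjusted limma p under 0.05 there were 5 of the 24 (20.8%), Plk2, Cdk4, Mcm5 and Mki67 with differences above 0 and Rrm1 below 0, against 17.3% of all genes tested. In the fit without the filter there were 6 of 37 (16.2%), against 13.6%.

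The members of each phase are given next by the side of 0 on which they lay. The difference, deletion minus control, was above 0 for 8 of 8 G1 genes, with a median of 0.21 log2 units. It was above 0 for 8 of 11 S phase genes, with a median of 0.09, and for 2 of 5 mitosis genes, with a median of -0.03. Over all genes tested, 50.2% of differences were above 0 and the median was 0.00. With arrays centred the counts were 8 of 8, 7 of 11 and 1 of 5, while 35.5% of all genes lay above 0. With the mean level of endothelial markers as a covariate, a fit described with Plk2, they were 2 of 8, 4 of 11 and 2 of 5, against 45.6% of all genes, and the G1 median was -0.09. Without the filter, 9 of 9 G1, 8 of 11 S phase and 8 of 17 mitosis genes were above 0, against 45.4% of all genes. No difference between the phases was tested.

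**Figure D1:**
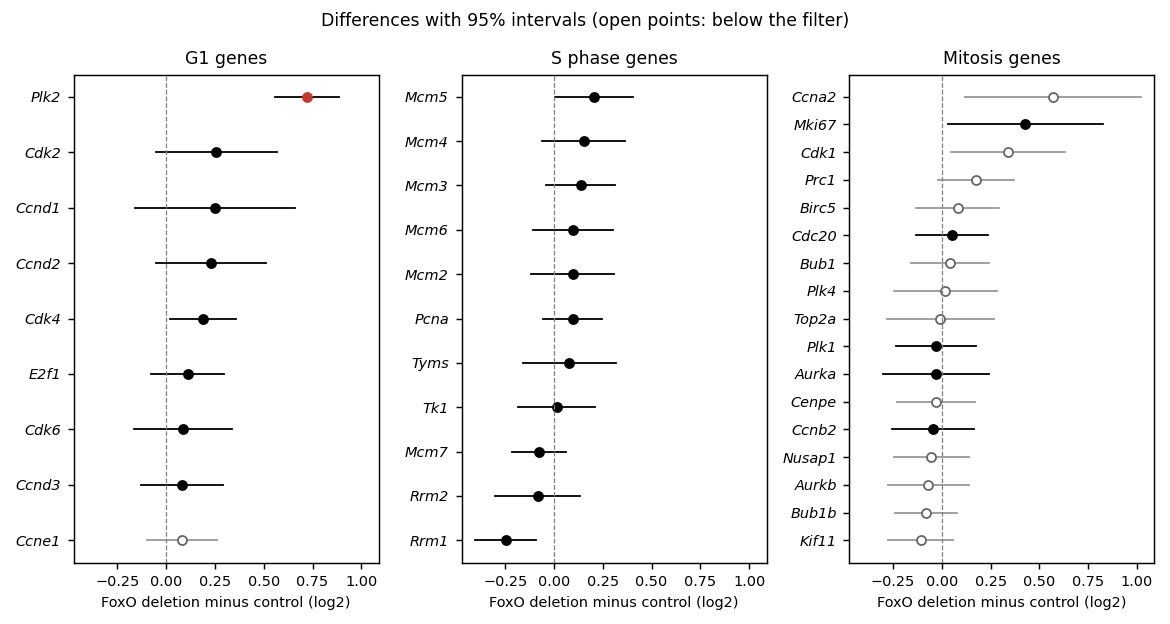
Difference in log2 expression, FoxO deletion minus control, for each of the 37 cell cycle genes (points) with its 95% limma interval (lines), in 3 panels by phase. Filled points passed the filter on dim probe sets and open points did not; Plk2, in red, is the gene past the threshold, and the G1 points lie right of 0.

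Plk2, on chromosome 13, encodes polo-like kinase 2, a kinase made in G1 that takes part in centriole duplication and is known as an early response gene of serum and stress. It read 7.58, 7.44, 7.24, 7.59, 7.54, 7.59, 7.42 and 7.21 log2 units in deletion mice 1 to 8, and 6.86, 6.42, 6.66, 6.85, 6.78, 6.78, 6.85 and 6.64 in control mice 1 to 8. All 8 deletion mice lay above every control, which holds for 0.243% of the genes tested. The means were 7.45 ± 0.15 in deletion mice and 6.73 ± 0.15 in control mice (SD, n = 8 each). Deletion minus control was 0.72 (SE 0.08), or 1.65-fold, with a 95% interval of 1.47 to 1.85-fold (limma adjusted p = 6.36e-05). The 2-sided exact permutation p was 0.0001554, the smallest that 12870 splits of 16 mice into 8 and 8 can give. Leaving out each mouse in turn gave 0.68 to 0.76, with an adjusted p of 2.96e-04 or less.

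The Plk2 promoter is shown because Plk2 is the gene past the threshold. The window runs from 250 bases before to 50 after the gene's start and comes from RefSeq, build GRCm38.p6, as do those shown for other members (chr13:110394794-110395093, plus strand). The capitals mark a cAMP response element, TGACGTCA, the palindrome that CREB family factors are known to bind, which 1.79% of the 32851 windows in the table hold on either strand.
Plk2: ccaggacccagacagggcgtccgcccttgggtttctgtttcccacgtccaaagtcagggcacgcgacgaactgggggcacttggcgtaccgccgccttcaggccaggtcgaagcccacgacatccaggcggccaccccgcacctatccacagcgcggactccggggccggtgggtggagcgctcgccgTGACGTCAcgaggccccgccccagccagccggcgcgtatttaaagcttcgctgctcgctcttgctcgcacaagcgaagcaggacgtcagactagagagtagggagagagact
The FoxO core letters GTAAACA, searched on both strands, were found in 3.65% of all windows and not in this one. Among members with a window they were found in Ccnd3 and Mcm7, neither of which passed the threshold.

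Most endothelial markers lay on the same side of 0 as Plk2. All 16 examined passed the filter and 14 had differences above 0, while Sox18 (-0.08) and Robo4 (-0.03) lay below 0. Of the 16, 9 passed the threshold with a higher level in deletion mice, against 1.53% of all genes tested. Kdr was not among the 9 (0.08, limma adjusted p = 0.832). The mean level of the 16 was 7.23 to 7.83 in deletion mice and 7.03 to 7.40 in control mice. With that mean level as a covariate, the Plk2 difference was 0.50 (SE 0.11) and no longer passed the threshold (limma adjusted p = 0.133), in a fit that called 6 genes in all. The same covariate turned the sign of 6 of 8 G1 genes and left Plk2 and E2f1 above 0. The 6 were Ccnd1 (-0.28, SE 0.27), Ccnd2 (-0.26, SE 0.16), Cdk6 (-0.17, SE 0.18), Ccnd3 (-0.14, SE 0.15), Cdk2 (-0.03, SE 0.23) and Cdk4 (-0.0029, SE 0.12). None of them passed the threshold in that fit. This fit was chosen after the data were seen, and the covariate itself differs between the groups. Whether endothelial cells carried the Plk2 transcript was not tested. Without the 6 mice whose muscle read over 10 log2 units of the liver transcript Alb (deletion mice 1, 2, 4 and 5 and control mice 2 and 7), Plk2 differed by 0.61 (limma adjusted p = 0.0416).

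The G1 cyclins and their kinases differed by less. Cdk4, the kinase partner of D cyclins, read 6.81 to 7.23 with a median of 7.05 in deletion mice, and 6.66 to 7.13 with a median of 6.82 in control mice. The groups overlapped, with 3 of 8 deletion mice above every control, and the difference of 0.19 (SE 0.08) did not pass over all genes (limma adjusted p = 0.237). Its 2-sided exact permutation p was 0.0342, unadjusted.

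Cdk2, the kinase partner of cyclins E and A, read 4.96 to 6.16 with a median of 5.74 in deletion mice and 4.99 to 5.68 with a median of 5.58 in control mice. It differed by 0.26 (SE 0.15, limma adjusted p = 0.383), with 5 deletion mice above every control and 1 below every control. Ccnd1, the cyclin D1 gene that growth factors induce, read 5.44 to 6.98 with a median of 6.14 in deletion mice and 5.61 to 6.47 with a median of 5.85 in control mice. Deletion mice held both ends of the Ccnd1 range: mice 2 and 6 lay above every control and mice 4 and 8 below every control, for a difference of 0.25 (SE 0.20, limma adjusted p = 0.537). Ccnd2, another D cyclin, read 6.08 to 7.00 with a median of 6.65 in deletion mice and 6.05 to 6.89 with a median of 6.27 in control mice, a difference of 0.23 (SE 0.13, limma adjusted p = 0.388). Its control maximum was control mouse 4 alone, the next control reading 6.43.

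The remaining G1 members lay closer to 0. The transcription factor E2f1, Cdk6 and Ccnd3 differed by 0.11, 0.09 and 0.08 (limma adjusted p of 0.555 to 0.757). Ccne1, the cyclin E1 gene that acts with Cdk2 at the entry to S phase, lay above the array median in 2 deletion mice and 1 control mouse and so was not tested with the others; its difference was 0.08. Over the G1 genes tested, the mean level of a mouse was 5.82 to 6.42 in deletion mice and 5.84 to 6.15 in control mice, and deletion mouse 8 was the lowest of all 16.

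**Figure D2:**
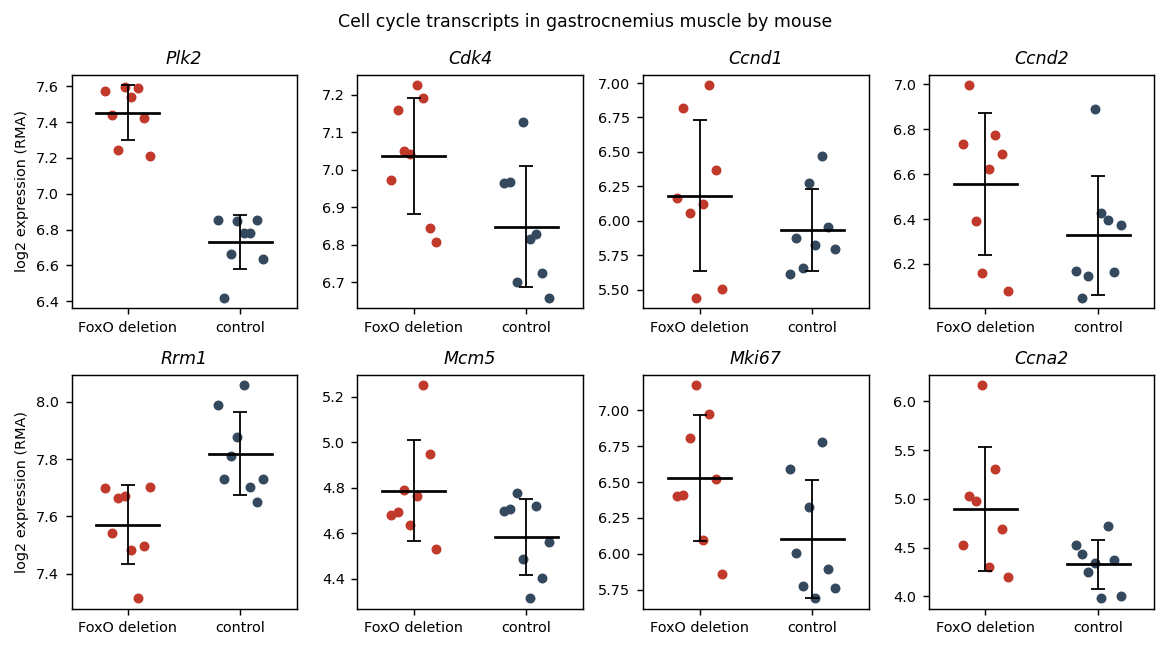
Log2 expression (RMA) of 8 cell cycle genes in each mouse, FoxO deletion left and control right in every panel, with the mean (line) and SD (bar) over 8 mice. Plk2 groups do not overlap (lowest deletion value 7.21, highest control value 6.86), Rrm1 lies below every control in 4 deletion mice, and Ccna2 and Mki67 are highest in deletion mice 4 and 6; axes differ between panels.

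Of the S phase genes, Rrm1 stood lowest with deletion. It encodes the large subunit of ribonucleotide reductase, which makes the deoxyribonucleotides for DNA. Rrm1, on chromosome 7, read 7.31 to 7.70 with a median of 7.60 in deletion mice and 7.65 to 8.06 with a median of 7.77 in control mice. Of 8 deletion mice 4 lay below every control, and the groups overlapped. The difference was -0.25 (SE 0.07) with a limma adjusted p of 0.0989, above the threshold of 0.05, and a 2-sided exact permutation p of 0.00186. Leaving out each mouse in turn gave -0.27 to -0.21, with an adjusted p of 0.0538 to 0.185.

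The small subunits did not share the value of Rrm1 in full: Rrm2, the subunit made in dividing cells, differed by -0.08 (limma adjusted p = 0.718). Rrm2b, the subunit that p53 induces and that serves non-dividing cells, differed by -0.17 (SE 0.07, limma adjusted p = 0.231). Rrm2 read 4.20 to 5.00 in deletion mice and 4.42 to 4.94 in control mice, close to the array medians, with 4 of 8 mice above the median in each group. Tyms and Tk1, which make thymidylate, differed by 0.08 and 0.01 (limma adjusted p of 0.773 and 0.957).

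The helicase genes Mcm2 to Mcm7 encode the ring that opens DNA at replication origins. Mcm5 read 4.53 to 5.25 with a median of 4.73 in deletion mice and 4.31 to 4.78 with a median of 4.63 in control mice, a difference of 0.20 (SE 0.10, limma adjusted p = 0.282, 2-sided exact permutation p = 0.0531). Its highest value was in deletion mouse 6, which was also the highest of the 16 mice for Mcm2, Mcm6 and Pcna. Mcm3 read 4.45 to 5.11 in deletion mice and 4.66 to 4.90 in control mice (0.14, limma adjusted p = 0.415), and Mcm4 read 5.55 to 6.12 in deletion mice and 5.32 to 5.95 in control mice (0.15, limma adjusted p = 0.456). Without the mice with high Alb, Mcm4 differed by -0.02. Mcm2, Mcm6 and Pcna, the sliding clamp of DNA polymerase, each differed by 0.09 to 0.10, and Mcm7 by -0.08 (limma adjusted p of 0.520 to 0.672). Of the 6 subunits of one ring, 5 lay above 0 and Mcm7 below it, and none passed. No difference between the subunits was tested.

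The Rrm1 window is shown because Rrm1 had the smallest p of the S phase genes (chr7:102441445-102441744, plus strand). The capitals mark CCAAT boxes, the letters that the factor NF-Y is known to bind.
Rrm1: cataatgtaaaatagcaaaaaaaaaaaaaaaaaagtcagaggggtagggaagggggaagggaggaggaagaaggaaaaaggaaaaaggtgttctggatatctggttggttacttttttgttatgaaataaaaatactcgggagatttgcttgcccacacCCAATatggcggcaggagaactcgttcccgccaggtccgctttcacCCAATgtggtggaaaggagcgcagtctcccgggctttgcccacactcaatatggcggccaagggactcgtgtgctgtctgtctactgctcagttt
CCAAT, searched on both strands as were all motifs, was found in 8 of 10 S phase genes with a window and 12 of 15 mitosis genes, against 2 of 7 G1 genes and 37.4% of all windows. E2F letters (TTTCCCGC, TTTCGCGC, TTTGCCGC or TTTGGCGC) were found in 4 of 10 S phase genes (Mcm3, Mcm5, Mcm6 and Mcm7), 1 of 7 G1 genes (Cdk2) and 1 of 15 mitosis genes (Cdk1), against 2.26% of all windows. Of the 4 S phase genes with E2F letters, Mcm3, Mcm5 and Mcm6 had differences above 0 and Mcm7 below 0, and none passed the threshold.

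Most mitosis genes read at or below the array median. Of 17 with a probe set, 12 did not pass the filter, and Bub1, Bub1b, Birc5, Kif11 and Plk4 lay below the array median in all 16 mice. The 5 that passed were Mki67, Ccnb2, Aurka, Plk1 and Cdc20, and the other 12 were not tested with them.

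Mki67, on chromosome 7, encodes the Ki-67 protein that coats mitotic chromosomes and is widely used to mark cycling cells. It read 5.86 to 7.17 with a median of 6.47 in deletion mice and 5.69 to 6.78 with a median of 5.95 in control mice. The highest mice were deletion mice 4, 6 and 3, which lay above every control, and deletion mouse 8 was among the lower ones. The difference was 0.43 (SE 0.19, limma adjusted p = 0.253, 2-sided exact permutation p = 0.0665), and leaving out each mouse in turn gave 0.33 to 0.52.

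Ccnb2, the cyclin B2 gene, read 4.96 to 5.51 in deletion mice and 4.86 to 5.57 in control mice, a difference of -0.05 (SE 0.10). Plk1, the polo-like kinase of mitotic entry, read 4.30 to 4.84 in deletion mice and 4.32 to 5.02 in control mice, a difference of -0.03 (SE 0.10). Cdc20, which activates the ligase that ends mitosis, read 4.39 to 4.88 in deletion mice and 4.46 to 4.88 in control mice, a difference of 0.05 (SE 0.09). These 3 and the spindle kinase Aurka (-0.03, SE 0.13) overlapped almost fully between the groups. Plk2 thus stood apart from its relatives in size: Plk1 and Plk4, which drives centriole duplication, differed by -0.03 and 0.02, and the stress kinase Plk3 by 0.09, none of them past the threshold. No difference between Plk2 and these genes was tested.

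Among the mitosis genes below the filter, Ccna2, Cdk1 and Prc1 had the largest differences and were chosen after their values were seen. Ccna2, the cyclin A2 gene of S phase and mitosis, read 4.20 to 6.16 with a median of 4.83 in deletion mice and 3.98 to 4.72 with a median of 4.36 in control mice. It lay above the array median in 5 deletion mice and 1 control mouse, and differed by 0.57 (SE 0.21, limma adjusted p = 0.253 in the fit without the filter, 2-sided exact permutation p = 0.0222). Cdk1, the kinase that starts mitosis, differed by 0.34 (SE 0.14, limma adjusted p = 0.294 in that fit) and lay above the median in 1 deletion mouse and no control mouse. Prc1, which bundles microtubules of the dividing cell's midzone, differed by 0.18 (SE 0.09, limma adjusted p = 0.423 in that fit). The other 9 lay between -0.11 (Kif11) and 0.08 (Birc5); the topoisomerase gene Top2a differed by -0.01, and Aurkb, Bub1, Bub1b, Cenpe, Nusap1 and Plk4 lay between those ends.

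The Mki67 and Cdk1 windows are shown because they hold the elements for which mitosis genes are known (Mki67 at chr7:135716330-135716629, minus strand, and Cdk1 at chr10:69352863-69353162, minus strand). The capitals mark the letters TTTGAA of the cell cycle homology region, an element of many late cell cycle promoters, and CCAAT boxes, which read ATTGG where they lie on the other strand. In Cdk1 they also mark the E2F letters TTTCGCGC.
Mki67: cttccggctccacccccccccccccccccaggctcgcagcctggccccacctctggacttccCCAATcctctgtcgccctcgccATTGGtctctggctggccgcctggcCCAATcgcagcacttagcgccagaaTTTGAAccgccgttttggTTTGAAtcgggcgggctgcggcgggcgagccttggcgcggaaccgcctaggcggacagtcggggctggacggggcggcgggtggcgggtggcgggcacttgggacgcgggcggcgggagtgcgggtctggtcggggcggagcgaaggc
Cdk1: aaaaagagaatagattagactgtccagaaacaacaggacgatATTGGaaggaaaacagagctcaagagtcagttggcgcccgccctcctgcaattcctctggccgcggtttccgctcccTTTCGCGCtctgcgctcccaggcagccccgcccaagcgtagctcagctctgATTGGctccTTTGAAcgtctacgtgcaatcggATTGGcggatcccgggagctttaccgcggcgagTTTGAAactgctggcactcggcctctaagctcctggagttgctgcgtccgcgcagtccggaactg
TTTGAA was found in 10 of 15 mitosis genes with a window, in 1 of 10 S phase genes (Mcm2) and in 0 of 7 G1 genes, against 17.9% of all windows. The 10 were Mki67, Cdk1, Prc1 and Cdc20, with differences above 0, and Ccnb2, Plk1, Aurka, Bub1b, Kif11 and Top2a, with differences below 0. None of these 10 genes passed the threshold with or without the filter, and a direction shared by genes with these letters was not tested.

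**Figure D3:**
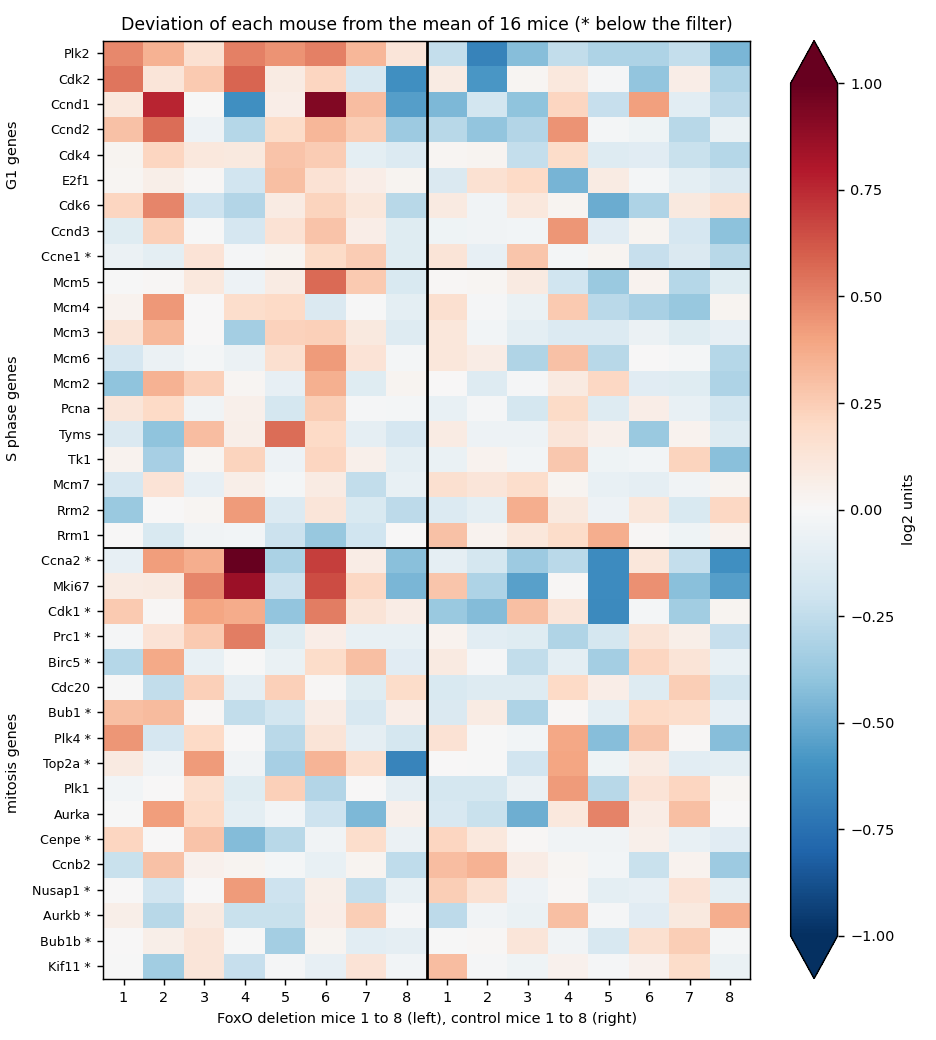
Deviation of each mouse (columns, FoxO deletion 1 to 8 left, control 1 to 8 right) from the mean of 16 mice for 37 cell cycle genes (rows, grouped by phase and ordered by difference), in log2 units with colours capped at 1. The Plk2 row is above the mean in all 8 deletion mice and below it in all 8 control mice, while Ccna2 and Mki67 are highest in deletion mice 4 and 6.

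Other genes of the cell cycle were taken from 4 lists chosen by function, and no gene of these lists passed the threshold. Over all genes tested, 1.83% passed and 50.2% lay above 0. At that share, 0 calls in lists of this size cannot be set apart from the background. Of the inhibitors, 0 of 19 tested passed, and 9 lay above 0. The inhibitor Cdkn1a (p21), which FoxO and p53 are known to induce, read 7.82 ± 0.61 in deletion mice and 7.56 ± 0.27 in control mice (SD, n = 8 each; limma adjusted p = 0.544). Cdkn2c (p18), an inhibitor of Cdk4 and Cdk6, differed by 0.14 (SE 0.08), Ccng1, a p53-induced cyclin, by -0.10 (SE 0.07), and the retinoblastoma gene Rb1 by -0.09 (SE 0.07), with limma adjusted p of 0.371 to 0.505.

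Of the other G1 and E2F genes, 0 of 20 passed, and 7 of them (35.0%) had an unadjusted limma p under 0.05. That count was 0 of 19 inhibitors, 4 of 32 other S phase genes (12.5%) and 4 of 18 other mitosis genes (22.2%), against 17.3% of all genes tested. E2f2, an E2F activator that is also prominent in red cell precursors, read 4.98 to 7.85 with a median of 5.98 in deletion mice and 4.84 to 5.75 with a median of 5.16 in control mice. It differed by 0.95 (SE 0.28, limma adjusted p = 0.0969, 2-sided exact permutation p = 0.00544), and passed the threshold without deletion mouse 8 (1.12, adjusted p = 0.0190). Cks1b, a cofactor of cyclin-dependent kinases, read 5.15 to 5.76 in deletion mice and 5.54 to 5.85 in control mice, with 7 of 8 deletion mice below every control. It differed by -0.27 (SE 0.08, limma adjusted p = 0.0792), passed without deletion mouse 3 (-0.32, adjusted p = 0.0183) and passed with arrays centred (-0.32, adjusted p = 0.0385). The E2F partner Tfdp2 differed by 0.37 (SE 0.14) and E2f3 by -0.25 (SE 0.09), with limma adjusted p of 0.167 and 0.168.

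Of the other S phase genes, 0 of 32 passed and 17 (53.1%) lay above 0, against 50.2% of all genes tested. Pola1, the catalytic subunit of the polymerase that starts new strands, differed by 0.19 (SE 0.08, limma adjusted p = 0.257), and the clamp loader subunit Rfc3 by 0.13 (SE 0.07, limma adjusted p = 0.365). Rfc1, the large subunit of the same loader, differed by -0.20 (SE 0.06, limma adjusted p = 0.1004). Of the other mitosis genes, 0 of 18 passed and 13 (72.2%) lay above 0, against the same 50.2%. Anln, an actin-binding protein of the cleavage furrow, read 4.86 ± 0.30 in deletion mice and 4.45 ± 0.37 in control mice (SD, n = 8 each; difference 0.41, limma adjusted p = 0.176). It lay above the array median in 8 of 16 arrays, the fewest that pass the filter. Its 8 highest mice were deletion mice apart from control mice 1 and 4. The condensin subunit Ncapd2 differed by 0.17, the kinetochore gene Spc24 by -0.15 and the cohesin protector Sgo2a by -0.12 (limma adjusted p of 0.206 to 0.614). Ube2c, the ubiquitin-conjugating enzyme of the ligase that ends mitosis, was chosen after its values were seen: it read 5.71 to 9.93 in deletion mice and 5.80 to 7.07 in control mice and differed by 1.05 (SE 0.44, limma adjusted p = 0.223).

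Red cell transcripts were highest in mice that also read high for some of these genes. Of 10 red cell markers 3 had a probe set with 1 symbol and 2 were tested; the mean of these 2 was 4.99 to 8.78 log2 units in deletion mice and 4.88 to 6.26 in control mice. Slc4a1, the band 3 anion exchanger of the red cell membrane, differed by 1.55 (SE 0.49, limma adjusted p = 0.113) and Epb42, a membrane skeleton protein, by 0.86 (SE 0.33, limma adjusted p = 0.183). Epb42 lay above the array median in 7 deletion and 3 control mice and so passed the filter mainly through the deletion group. Klf1, a transcription factor of red cell precursors, lay above the array median in 1 deletion mouse and 2 control mice. In the fit without the filter, Klf1 differed by 0.03 (SE 0.10). Deletion mice 4, 6 and 5 were, in that order, the 3 highest of 16 for Slc4a1, Epb42, E2f2 and Ube2c. Deletion mice 4 and 6 were also the 2 highest for Mki67, Ccna2, Tfdp2 and Plk2, whereas Rrm1 was lowest in deletion mouse 6. Deletion mouse 5, however, lay below control mice 1, 4 and 6 for each of Mki67, Ccna2 and Cdk1.

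With the red cell level as a covariate, E2f2 differed by 0.13 (SE 0.10), Mki67 by 0.05 (SE 0.18), Tfdp2 by 0.07 (SE 0.11) and Ccna2 by 0.08 (SE 0.18), and Ube2c by -0.24 (SE 0.11). Plk2 differed by 0.61 in that fit (limma adjusted p = 0.00406), Rrm1 by -0.22 and Cdk1 by 0.26. This fit was chosen after the data were seen, and its covariate itself differs between the groups (mean 6.57 in deletion and 5.37 in control mice). The part of red cells or their precursors in these differences was not tested further.

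**Figure D4:**
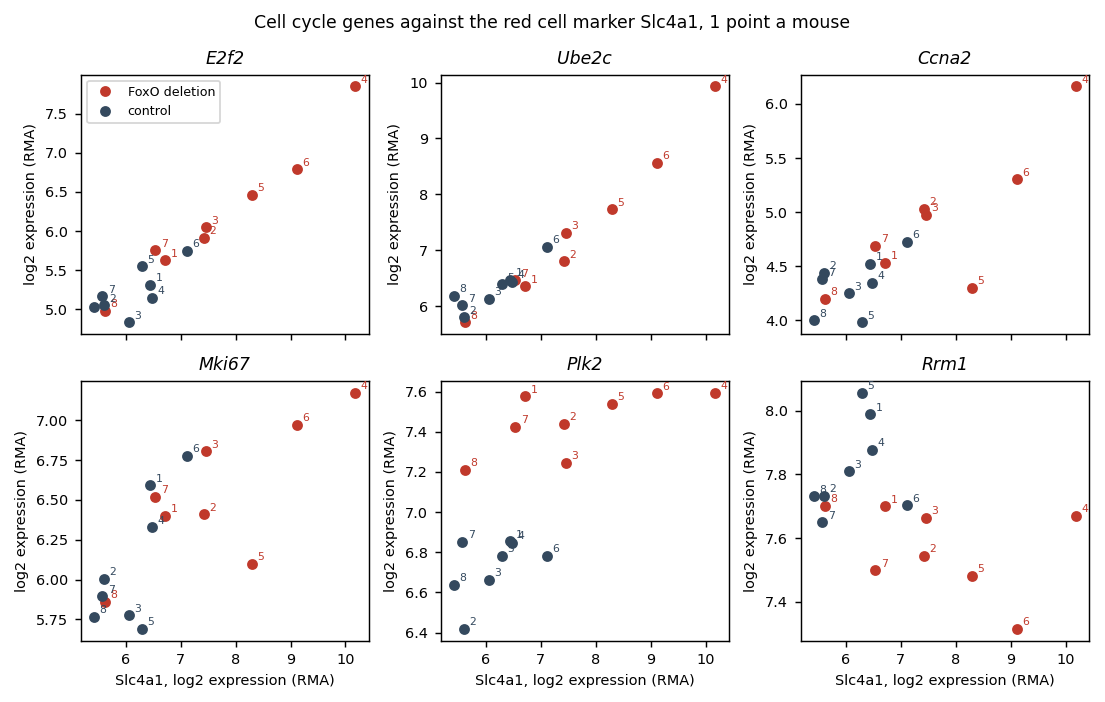
Log2 expression (RMA) of 6 cell cycle genes (vertical axes) against the red cell marker Slc4a1 (horizontal axis), 1 point a mouse with its number, FoxO deletion in red and control in dark grey. E2f2 and Ube2c are highest in deletion mice 4, 6 and 5, which also read highest for Slc4a1, while the Plk2 groups stay apart at like Slc4a1 levels.

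Markers of other cell types, and liver transcripts, were read in the same way. Of 12 satellite cell and myoblast markers, 1 passed the threshold, Vcam1, which is also an adhesion molecule of endothelial cells and was higher with deletion (0.79, SE 0.12, limma adjusted p = 0.00406). The mean of these markers was 6.30 to 6.47 in deletion mice and 6.32 to 6.67 in control mice, the satellite cell factor Pax7 differed by -0.14 (SE 0.11) and Myod1, which marks activated satellite cells, by -0.27 (SE 0.10, limma adjusted p = 0.161). Of macrophage and monocyte markers 4 of 15 rose and of adipocyte markers 1 of 8, against 1.53% of all genes tested. The gene of the adipocyte list that rose was Fabp4 (0.49, limma adjusted p = 0.0221), whereas Adipoq (0.21) and Lep (-0.16) did not pass the threshold. Fabp4 read far above Adipoq, with means of 11.88 against 5.82 in deletion mice and 11.39 against 5.61 in control mice. Whether adipocytes carried the Fabp4 transcript was not tested. Of 10 neutrophil markers 3 passed the filter and 1 of them rose, S100a8, which lay above the array median in 8 deletion and 2 control mice and so passed the filter mainly through the deletion group. S100a9, below the filter, lay above the median in 7 deletion and 0 control mice, with groups that did not overlap (1.38, SE 0.21, limma adjusted p = 0.00429 in the fit without the filter). In that fit 7 of the 10 neutrophil markers lay above 0. Ly6g (-0.08), Mpo (-0.12) and Elane (-0.05), all below the filter, lay below 0. None passed of 5 lymphocyte, 11 fibroblast, 12 pericyte and smooth muscle, 5 Schwann cell, 6 liver and 14 muscle fibre markers. No marker in these lists passed the threshold with a lower level in deletion mice.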

How the data were processed

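Total RNA of 16 gastrocnemius muscles, 250 ng each, was labelled and hybridised to Affymetrix arrays, per the labels' protocols. The authors deposited 1 table of log2 values for 41345 probe sets; RMA and the oligo package are named in the submitters' processing notes, while their versions and the genome build are not given in the sources used. Of the probe sets, 23521 pair with 1 gene symbol, 1814 with several and 16010 with none; those with 1 were used, the brightest mean a gene. Genes whose probe set exceeded the median of its array on 8 or more of 16 arrays were tested (13601) in 1 limma fit without covariates (limma 3.58.1, R 4.3.3), with Benjamini-Hochberg adjustment over all of them. On simulated data for 8 against 8 mice with 13601 genes, it recovered 80 of 100 genes changed by 0.5 and 98 of 100 changed by 1 log2 unit, with 3 false calls. Precision is limited by the number of arrays.

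Groups come from the labels, which call each mouse a biological replicate. The groups share replicate numbers, but no label says that a number marks a litter, batch or day. The mice were therefore not treated as paired. Of 8 same-numbered pairs, 4 correlated over 0.1. The same count was not made for differently numbered pairs, so it cannot show if a number marks a shared batch. The members and gene lists were chosen with earlier results of these data known. Values by mouse are given for members past the threshold and for up to 4 further members a phase with the smallest p, and of each pathway list for up to 2 genes in each direction; Ccna2, Cdk1, Prc1, Ube2c, Foxo1, Foxo3, Foxo4 and the named markers fall outside that rule. Alternatives were other filters, scalings, probe set rules, variance priors, array weights, Welch's test, the replicate block, a threshold of 0.10 and each mouse left out.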

Additional observations from a re-analysis of the deposited data

Results flagged for a closer look

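In 4 of 74 groups of 8 mice, 1 mouse lay far from the others of its group by Dixon's ratio, against 3.7 expected at a chance of 1 in 20. Nusap1, a spindle protein gene below the filter, read 4.65 in deletion mouse 4, the next deletion mouse being at 4.28. Ccnd2 read 6.89 in control mouse 4 (next control 6.43), Top2a, below the filter, read 4.73 in control mouse 4 (next control 4.42), and Mcm3 read 4.90 in control mouse 1 (next control 4.76). None of the 4 genes passed the threshold.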

How the results depend on the processing

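Plk2 kept its direction under all 29 alternatives and its side of the threshold under 28, the exception being the endothelial covariate, which left 0 G1 genes past it. No mitosis gene passed under any alternative, and the S phase count moved only at an adjusted p under 0.10, where 1 (Rrm1) passed. Over all genes, higher and lower calls numbered 116 and 21 without the filter, 126 and 67 with arrays centred (65.3% higher, against 83.5%), 142 and 55 after quantile normalization (72.1% higher), 56 and 12 by Welch's test, 381 and 124 at an adjusted p under 0.10, 4 and 3 without the mice with high Alb, 14 and 9 with the red cell covariate, and 3 and 3 with the endothelial covariate; array weights gave 65 lower. Leaving out each mouse in turn gave 90 to 538 higher and 17 to 142 lower, the upper ends without deletion mouse 8 and the lower ends without deletion mouse 6.

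At a filter on the array's 75th percentile, with 2 S phase genes and 1 mitosis gene left, the medians were -0.076 and 0.43. The S phase median was 0.0098 with the red cell covariate, and the endothelial covariate gave G1 and S phase medians of -0.087 and -0.028. Of the members tested, signs turned for Cdc20 (-5.41e-05) and Tk1 (-0.037) with arrays centred, for none after quantile normalization, for Mcm4 without the mice with high Alb (-0.024), for Tk1 (-0.079) and Tyms (-0.017) with the red cell covariate, which also turned Ube2c (-0.24), and with the endothelial covariate for 6 of 8 G1 genes, Cdk4 (-0.0029), Cdk2 (-0.029), Ccnd2 (-0.26), Ccnd1 (-0.28), Ccnd3 (-0.14) and Cdk6 (-0.17), and 4 of 11 S phase genes, Mcm4 (-0.018), Mcm6 (-0.030), Tk1 (-0.028) and Tyms (-0.044). Among members with values by mouse, leaving out each mouse in turn gave Ccnb2 -0.10 to 0.0018 (above 0 without control mouse 2) and Plk1 -0.070 to 0.031 (above 0 without control mouse 4, control mouse 7 or deletion mouse 6). With the endothelial covariate, the SEs of the genes whose sign turned were 0.12 to 0.27 in G1 and 0.15 to 0.18 in S phase. The cause was not tested.

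With the replicate number as a block, 175 genes were higher and 38 lower, Plk2 kept its call (0.72, limma adjusted p = 4.63e-04) and no other member's call changed; same-numbered mice correlated at -0.08 to 0.25, and 1 of 8 deletion mice correlated best with its own number. Brightness limits the mitosis genes, of which 12 of 17 lay below the filter.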
